A study of Mus musculus with 13 samples.

Results

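Set 1 of this series comprised 8 primary cultures of neonatal dermal fibroblasts, of the 13 cultures sequenced. The fibroblasts came from the skin of 4 wild-type (WT) mice, W1 to W4, and of 4 homozygous mutant mice, M1 to M4, written Fbn1 G234D/G234D. The name of the allele reads as a glycine of fibrillin-1 replaced by aspartate. All 8 cultures were untreated, and the libraries were strand-specific and made from total RNA. The 8 were chosen by their set and genotype labels, and no measured value entered the choice. The study asked whether the mutation changes the fibroblasts themselves, in particular their expression of extracellular matrix (ECM) genes. The other 5 cultures, set 2 (2 WT and 3 homozygous), are used here only for comparison. Neither strain, passage number nor sex is given in the labels.

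Each culture carries a number in its title, and these numbers fall into 2 groups. The lower numbers belong to W1, W2, M1 and M2, called earlier-numbered here, and the higher ones to W3, W4, M3 and M4, called later-numbered. No label says what the numbers stand for, and that of W1 lies well below the other 3 of its group. The number group was entered as a block, so that each G234D pair was compared with the WT pair of its own group.

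Fibrillin-1, the product of Fbn1, is a large secreted glycoprotein that assembles outside the cell into microfibrils. Microfibrils run through the dermis, form the scaffold of elastic fibres and hold latent transforming growth factor beta (TGF-beta) in the matrix through latent TGF-beta binding proteins. TGF-beta in turn raises the transcription of many matrix genes in fibroblasts, collagens among them.

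The affected codon is shown to place the allele in its gene. In GENCODE release M21 on build GRCm38 (mm10), the codon that the allele names (Fbn1 transcript ENSMUST00000028633.12) lies in exon 7 on the minus strand, at chr2:125412640-125412642. The next 75 bases of reference coding sequence centre on it and read across the junction of exons 7 and 8, with the glycine codon in capitals.
Fbn1 codon: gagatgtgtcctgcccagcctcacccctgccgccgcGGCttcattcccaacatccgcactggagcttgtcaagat
The mutant base is not given in the sources used here.

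Fbn1 (ENSMUSG00000027204, chromosome 2 from 125300594 to 125507993) was expressed in all 8 cultures. Levels are in TPM, a relative unit of transcript number scaled for transcript length and library total. Fbn1 stood at 467, 507, 543 and 446 TPM in W1 to W4 and at 563, 522, 600 and 484 TPM in M1 to M4. The 2 ranges overlapped. The difference, G234D minus WT on the log2(TPM + 1) scale used throughout, was 0.14 (SE 0.0815, 95% interval −0.0414 to 0.327, limma adjusted p = 0.607). Since the allele alters a codon and does not delete the gene, the Fbn1 level says nothing about the labels.

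Set 1 libraries held 11741 to 12042 genes at 1 TPM or more, and the total read depth behind the TPM is unknown. Fibroblast markers dominated every culture: 14 of 14 were detected, with a summed level of 33951 to 39029 TPM over the WT and 33766 to 39192 TPM over the G234D libraries. Of 7 erythroid markers 5 were at 0 in all 8 cultures, and keratinocyte markers summed to at most 22.2 TPM. M1 and M2 stood apart from the other 6 cultures in 3 lists of markers for other cell types. The 25 skeletal muscle markers summed to 666 and 486 TPM in M1 and M2, against 157 to 224 TPM in WT cultures, 159 TPM in M3 and 95.4 TPM in M4. The 19 Schwann cell and melanocyte markers, which include the neural crest factor gene Sox10, summed to 166 TPM in each of M1 and M2, against 33.8 to 41.7 TPM in WT cultures, 59.2 TPM in M3 and 45.2 TPM in M4. The 19 macrophage and leukocyte markers summed to 194 and 255 TPM in M1 and M2, against 117 TPM in W1, 44.9 to 48.5 TPM in the other WT cultures, 60.8 TPM in M3 and 61.5 TPM in M4. In set 2 the macrophage sums were 126 and 131 TPM in the WT cultures W5 and W6 and 200, 142 and 155 TPM in the G234D cultures M5 to M7. The 4 Y-linked genes summed to 129 to 142 TPM in W1, W3, M1, M2 and M3, to 0.624 TPM in M4 and to 0 in W2 and W4. The genotypes were thus not balanced for Y-linked expression, and a fit with the mean of these genes as a covariate is given below. For the cell type markers, fewer cells of a type and less RNA per cell cannot be told apart in bulk RNA.

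**Figure D1:**
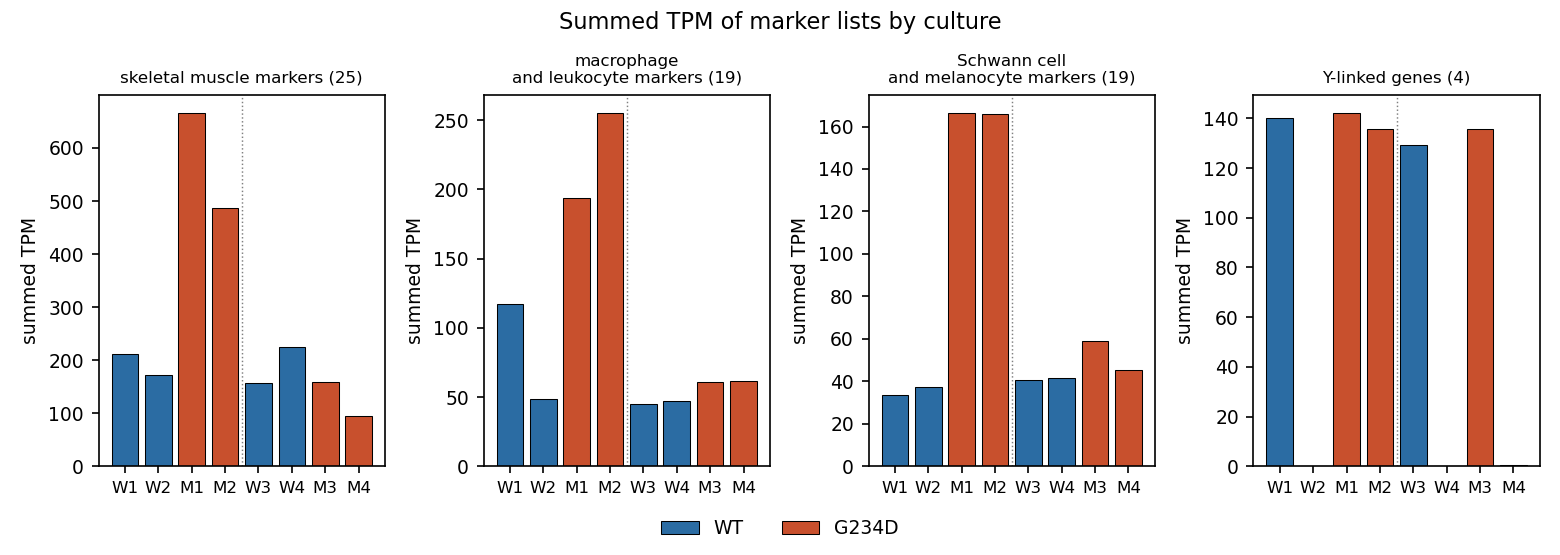
Bars give the summed TPM of 3 marker lists and of the Y-linked genes in each culture of set 1, WT in blue and G234D in orange, with the number of genes in brackets and a dotted line between the earlier-numbered (left) and later-numbered (right) cultures. M1 and M2 carry the highest muscle, macrophage and Schwann cell sums. M3 and M4 lie closer to the WT cultures, but above all of them in Schwann cell sums, and M4 lies below them in muscle sums.

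Across all genes at 1 TPM or more in at least 4 of the 8 libraries, 1 gene differed between the genotypes: Col7a1, which fell in G234D cultures. limma tested 11905 genes and called 0 higher (0%) and 1 lower (0.0084%) at an adjusted p under 0.05. The median difference over all genes was −0.00038 and the median SE 0.0703. At an unadjusted p under 0.05, a threshold that covers both directions together, there were 1157 genes (9.72%). Split by direction they were 593 higher genes (4.98% of all genes tested) and 564 lower genes (4.74%). With 1 culture left out these counts moved, most of all to 1034 higher genes without M4 (8.69% of all genes tested) and to 367 lower genes without W2 (3.08%). All 4 G234D values lay above all 4 WT values for 233 genes (1.96%) and below them for 261 genes (2.19%). These percentages are the background against which the counts for gene groups are given below. After Col7a1 the lowest adjusted p was 0.153, so the other genes named for this comparison are given by their values, and none of them passed the test.

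Col7a1 encodes the chain of type VII collagen, which forms the anchoring fibrils that fasten the epidermal basement membrane to the dermis. The gene (ENSMUSG00000025650) lies on the plus strand of chromosome 9 from 108953586 to 108984875. Its level was 79.8, 85.9, 75.9 and 68.6 TPM in W1 to W4 and 52.3, 56.2, 52.4 and 46.5 TPM in M1 to M4. The lowest WT culture lay above the highest G234D culture. The means were 77.6 ± 7.24 TPM for WT and 51.9 ± 4.01 TPM for G234D (SD, n = 4 each). The difference was −0.57 (SE 0.0566, 95% interval −0.697 to −0.443, limma adjusted p = 0.0283), a fold of 0.674. It was of like size in both number groups, at −0.60 in the earlier-numbered and −0.54 in the later-numbered cultures. The difference between those values was not called (interaction adjusted p = 0.803). The fit with the block counts such a difference as spread, so a gene with the smallest p tends to be even across the groups.

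Keratinocytes also make type VII collagen. The 16 keratinocyte markers summed to 13.4 to 22.2 TPM in WT cultures and 8.67 to 20.6 TPM in mutant ones, and 10 of them stayed under 1 TPM in all 8 cultures. The 3 that passed the filter on low levels all had a negative difference (median −0.38), 1 of them at an unadjusted p under 0.05. Sfn, an epithelial 14-3-3 protein and the most abundant marker of the list, stood at 9.23, 15.7, 9.37 and 11.5 TPM in W1 to W4 and at 8.42, 6.50, 5.03 and 6.18 TPM in M1 to M4. Its groups did not overlap, and the difference was −0.72 (SE 0.159, adjusted p = 0.216). Krt14 and Perp did not follow Sfn in the earlier-numbered cultures. Krt14 stood at 3.34 and 1.63 TPM in M1 and M2, against 2.22 and 1.41 TPM in W1 and W2. In M3 and M4 it was lower, at 0.0713 and 0.194 TPM, against 0.451 and 2.76 TPM in W3 and W4. Perp stood at 3.23 and 1.42 TPM in M1 and M2, against 0.366 and 0.743 TPM in W1 and W2. In M3 and M4 Perp stood at 0.310 and 0.730 TPM, against 0 and 1.43 TPM in W3 and W4. Within each number group 1 of the 3 markers tested had a positive difference. Their median was −0.22 in the earlier-numbered and −0.79 in the later-numbered cultures. The part of keratinocytes in the Col7a1 result was not tested.

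The size of the Col7a1 difference was steadier than its call. Leaving out 1 culture at a time kept the difference between −0.610 and −0.542, while the adjusted p ran from 0.0301 to 0.226 and passed in 3 of 8 cases, without M3, M4 or W4. Without the number group block the adjusted p was 0.182, with no filter on low levels 0.178, with no mean-variance trend 0.142 and with the mean of the Y-linked genes as a covariate 0.117.

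In set 2 Col7a1 lay the other way. It stood at 52.9 and 51.3 TPM in the 2 WT cultures, W5 and W6, and at 61.3, 54.1 and 63.8 TPM in the 3 G234D cultures, M5 to M7, a difference of 0.19 (SE 0.0776). All 5 values lay below the 4 WT cultures of set 1. The sets also differed in Y-linked genes, which summed to 0 TPM in all 5 cultures of set 2. In set 1 they summed to 129 to 142 TPM in W1, W3, M1, M2 and M3. The part of that in the set comparison was not tested. The difference of set 1 minus that of set 2 was −0.76 (SE 0.0982, adjusted p = 0.0396). Col7a1 was the 1 gene of 11942 (0.00837%) whose genotype difference was called as differing between the sets. That call was lost without the number group block (adjusted p = 0.386), and with 1 culture left out the adjusted p ran from 0.0129 to 0.309 and passed in 4 of 13 cases, without M2, M3, M6 or W4. At the next smallest p, Cdsn, a protein of cornified epidermis, had an adjusted p of 0.110.

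**Figure D2:**
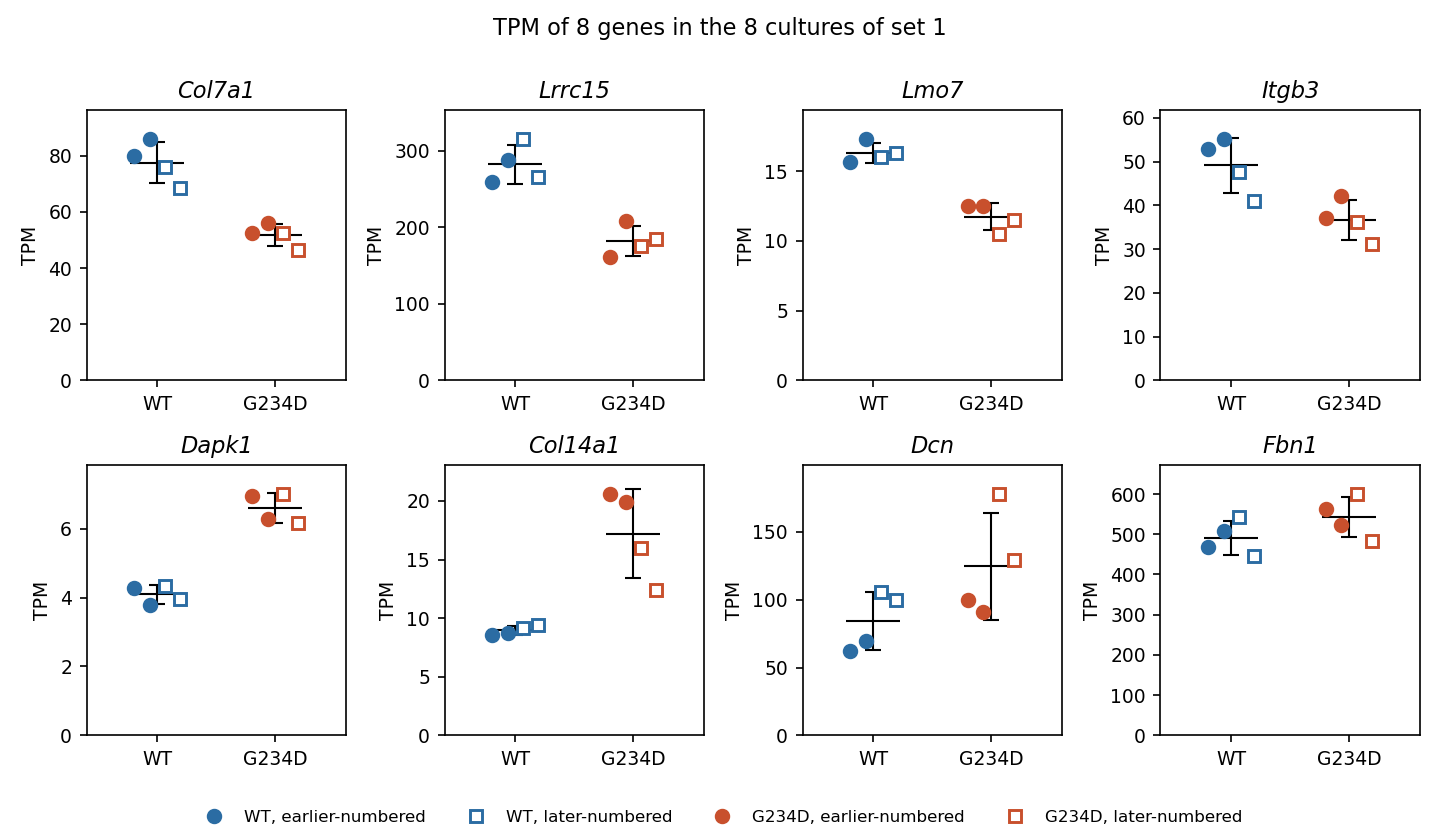
Each panel gives the TPM of 1 gene in the 8 cultures of set 1, WT in blue and G234D in orange, with filled circles for earlier-numbered and open squares for later-numbered cultures, and black bars for the mean and SD of 4. Col7a1, Lrrc15, Lmo7, Dapk1 and Col14a1 have no overlap between genotypes, while Itgb3, Dcn and Fbn1 overlap.

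**Figure D3:**
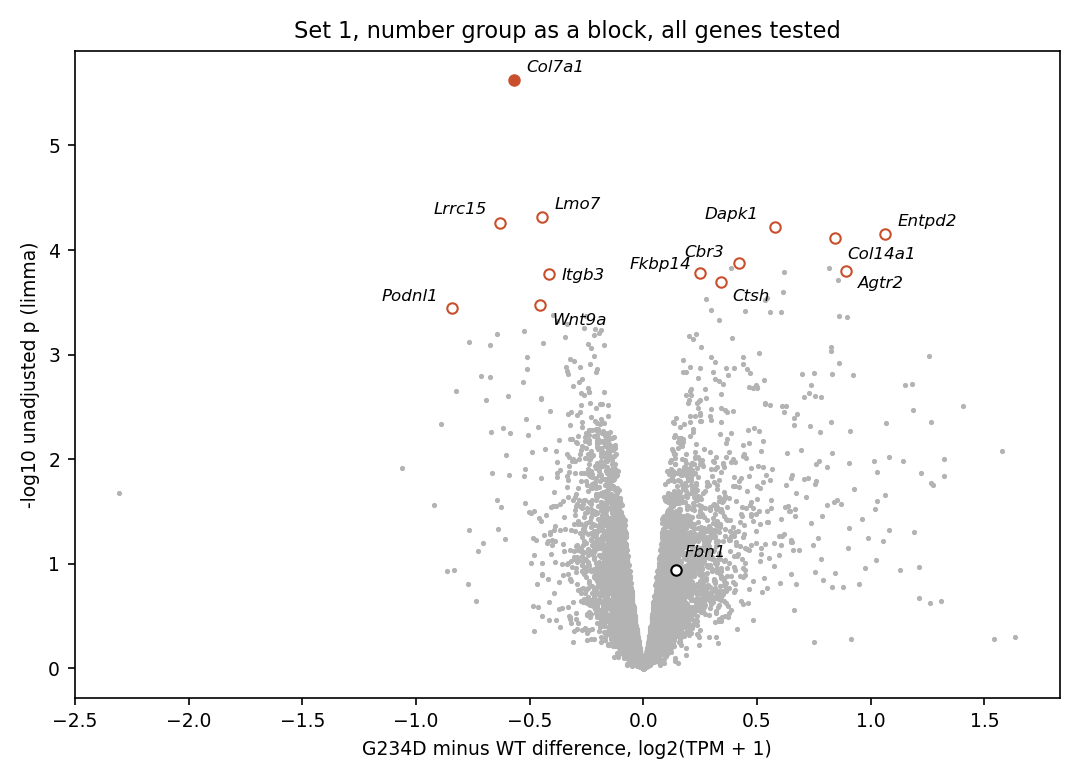
Points are the 11905 genes tested in set 1, with the G234D minus WT difference on log2(TPM + 1) along the horizontal axis and −log10 of the unadjusted limma p on the vertical axis. Col7a1, the filled circle, is the 1 gene called, and the open circles are other genes named in the text.

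The genes with the next smallest p on the lower side included several that act at the cell surface and in the matrix. Lrrc15, a leucine-rich repeat membrane protein known from TGF-beta-treated fibroblasts, stood at 260, 288, 315 and 265 TPM in W1 to W4 and at 162, 208, 176 and 184 TPM in M1 to M4. The groups did not overlap, and the difference was −0.63 (SE 0.0867, adjusted p = 0.153). Lmo7, a LIM domain protein that binds actin, had 15.7, 17.3, 16 and 16.3 TPM in W1 to W4 and 12.5, 12.5, 10.5 and 11.5 TPM in M1 to M4. The groups did not overlap here either, and the difference was −0.44 (SE 0.0632, adjusted p = 0.153). Itgb3 encodes the beta 3 subunit of integrins that bind RGD sequences, which fibrillin-1 also carries. Its level was 52.9, 55.1, 47.6 and 41.0 TPM in W1 to W4 and 37.0, 42.2, 36.1 and 31.1 TPM in M1 to M4. W4 lay below M2, but within each number group both G234D cultures lay below both WT cultures, and the difference was −0.42 (SE 0.0693, adjusted p = 0.156).

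The rest of the 10 smallest p on the lower side were spread over signalling, metabolism and protein folding. Wnt9a, a Wnt ligand, differed by −0.46 and Podnl1, a small leucine-rich proteoglycan, by −0.84. Bdh1, an enzyme of ketone body metabolism, differed by −0.40, and Ddah1, which breaks down methylated arginines, by −0.25. The transcription factor gene Sox11 differed by −0.38 and Pdia6, a protein disulfide isomerase of the endoplasmic reticulum, by −0.21. For these 6 genes the 4 G234D values all lay below the 4 WT values. Podnl1 stood at −1.18 in the earlier-numbered and −0.50 in the later-numbered cultures, and the interaction was not called (adjusted p = 0.0904).

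On the higher side the smallest p belonged to Dapk1, a calcium-dependent kinase linked to cell death and autophagy. It stood at 4.29, 3.78, 4.35 and 3.96 TPM in W1 to W4 and at 6.95, 6.29, 7.01 and 6.18 TPM in M1 to M4. The groups did not overlap, and the difference was 0.58 (SE 0.0846, adjusted p = 0.153). Col14a1, a collagen found on the surface of collagen fibrils, stood at 8.55, 8.77, 9.19 and 9.40 TPM in W1 to W4 and at 20.6, 19.9, 16 and 12.4 TPM in M1 to M4. Every G234D culture lay above every WT culture, with M1 and M2 highest and M4 nearest to WT, and the difference was 0.84 (SE 0.125, adjusted p = 0.153). Of the 19 settings tried for each named gene, Col14a1 passed only without M4, where the difference was 0.97 (limma adjusted p = 0.0218). Col28a1, a beaded-filament collagen found around Schwann cells, differed by 0.85 (1.16 in the earlier-numbered and 0.55 in the later-numbered cultures), and Entpd2, a nucleotidase of the cell surface, by 1.06 (1.43 and 0.70). Entpd2 was highest in M1 and M2, which also had the highest Schwann cell marker sums, whereas Col28a1 was highest in M4; the part of those sums in either value was not tested.

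The remaining genes of this group were of mixed function. Fkbp14, which helps procollagen fold by isomerizing its prolines, had a small and even difference of 0.25 (0.27 in the earlier-numbered and 0.23 in the later-numbered cultures). Cbr3, a carbonyl reductase, differed by 0.42, Tubb4a, a beta tubulin, by 0.82 and Agtr2, the type 2 angiotensin receptor, by 0.89. Ugt1a6a differed by 0.62, but it shares exons with the other genes of the Ugt1a cluster, and H4c9, at 0.39, is 1 of many near-identical histone H4 genes, so reads of both may have been divided among copies. Of the 10 genes with the smallest p on the higher side, Tubb4a alone had overlapping groups, because M3 and M4 lay below W1.

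Matrix genes, the question of the study, lay on both sides of 0. Of 288 genes in 9 lists of matrix components, their processing and their receptors, 233 passed the filter on low levels. limma called 1 of them, Col7a1, and 24 were higher and 22 lower at an unadjusted p under 0.05. Both directions together made 19.7% of the matrix genes tested, against 9.72% of all genes tested. Their median difference was 0.02, with 129 positive and 104 negative values. For 172 of the 233 (73.8%) the 95% interval lay within 1.5-fold in either direction, against 92.5% of all genes tested.

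Microfibril and elastic fibre genes, the family of Fbn1 itself, had 15 positive members of 31 tested, with 2 higher and 3 lower at an unadjusted p under 0.05 and a median of −0.013 with the block, against 0.05 in the earlier-numbered and 0.13 in the later-numbered cultures, so that the blocked median had another sign than both. Ltbp1, which tethers latent TGF-beta to microfibrils, had the smallest p of the list. It stood at 69.0, 79.5, 68.8 and 74.5 TPM in W1 to W4 and at 59.9, 68.8, 44.8 and 42.4 TPM in M1 to M4. M2 reached the level of W3, and the difference was −0.45 (SE 0.107, adjusted p = 0.248), with −0.20 in the earlier-numbered and −0.70 in the later-numbered cultures, values whose difference was not called (interaction adjusted p = 0.0664). Loxl3, a lysyl oxidase that crosslinks collagen and elastin, differed by −0.33, and Ltbp3, another latent TGF-beta binding protein, by 0.21.

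Fibrillar collagens, which make the bulk of the dermal matrix, had 2 positive members of 9, with 1 lower at an unadjusted p under 0.05. Col1a1, a chain of type I collagen, stood at 12795, 12462, 12104 and 10656 TPM in W1 to W4 and at 9405, 10678, 11933 and 10380 TPM in M1 to M4. The groups overlapped, and the difference was −0.18 (SE 0.0858, adjusted p = 0.524), with −0.33 in the earlier-numbered and −0.03 in the later-numbered cultures. Col5a3, a minor chain of type V collagen, differed by −0.23 and Col27a1 by −0.25. Among the 18 other collagens tested 8 were positive, and Col7a1, Col14a1 and Col28a1, described above, had the smallest p.

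Of 32 proteoglycan and hyaluronan genes tested, 4 were higher and 1 lower at an unadjusted p under 0.05. Dcn, encoding decorin, a proteoglycan that binds collagen fibrils and TGF-beta, stood at 62.0, 69.8, 106 and 99.6 TPM in W1 to W4 and at 100.1, 90.6, 178 and 129.6 TPM in M1 to M4. The groups overlapped, with higher levels in the later-numbered cultures of both genotypes, but within each number group both G234D cultures lay above both WT cultures. The difference was 0.54 (SE 0.0929, adjusted p = 0.180), at 0.53 in the earlier-numbered and 0.56 in the later-numbered cultures. Of the 19 settings tried, Dcn passed only without M4, where the difference was 0.63 (limma adjusted p = 0.0388).

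Among the 38 adhesive and matricellular glycoproteins tested 5 were higher and 6 lower at an unadjusted p under 0.05. Mgp, encoding matrix Gla protein, an inhibitor of calcification, stood at 57.0, 50.2, 35.0 and 54.4 TPM in W1 to W4 and at 91.9, 93.7, 101 and 65.0 TPM in M1 to M4. The groups did not overlap, and the difference was 0.83 (SE 0.169, adjusted p = 0.215). Crispld2, a secreted glycoprotein, differed by −0.62 with no overlap.

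Matrix proteases and inhibitors had 33 positive members of 48. Timp3, an inhibitor of metalloproteases that binds to the matrix, differed by 0.44 (SE 0.0929), with Mmp17, a membrane-bound metalloprotease, at 0.36 and Cpz, a carboxypeptidase, at 0.71. Of 15 laminin and basement membrane genes tested 1 was higher and 2 lower at an unadjusted p under 0.05, with Npnt, the integrin ligand nephronectin, at −0.51. Integrins had 3 positive members of 13 tested, with Itgb3 and Itgb5 lower at an unadjusted p under 0.05, and Itgb5 at −0.13. Genes for collagen folding, export and trimming had 18 positive members of 30 tested. P3h2, a prolyl hydroxylase, was at 0.44 and P4ha3 at −0.16.

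TGF-beta response genes lay mostly below 0. Of 31 response genes tested 7 were positive, 0 were higher and 7 were lower at an unadjusted p under 0.05 (4.74% over all genes), and the median was −0.098. Col7a1 and Lmo7 belong to this list, and Prdm1, a transcriptional repressor, differed by −0.77 (−1.12 in the earlier-numbered and −0.42 in the later-numbered cultures). Without M1 and M2 the count was 10 lower and 2 higher, where 5.32% of all genes tested were lower and 6.01% higher. Without M3 and M4 it was 11 lower and 6 higher, where 12.3% of all genes tested were lower and 12.9% higher. Ligands, receptors and Smads had 12 positive members of 30 tested and a median of −0.017. The activin subunit gene Inhba differed by −0.27, the ligand gene Tgfb3 by −0.16 and the receptor gene Tgfbr2 by 0.10.

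Other signalling lists had members on both sides of 0. IGF, FGF and PDGF genes had 8 higher and 3 lower at an unadjusted p under 0.05 of 31 tested. Igfbp3, a binding protein for insulin-like growth factors, stood at 42.1, 38.2, 33.4 and 39.9 TPM in W1 to W4 and at 50.2, 48.9, 55.5 and 66.4 TPM in M1 to M4. There was no overlap, and the difference was 0.51 (SE 0.103, adjusted p = 0.212). Igfbp5, another binding protein, differed by −0.69 with overlapping groups. Among BMP genes the target Id1 was at −0.32, and among Wnt genes the receptor gene Fzd2 was at −0.19.

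Genes of cholesterol synthesis and uptake formed the list with the lowest median outside the cell type markers. None of the 26 tested had a positive difference, 16 were lower at an unadjusted p under 0.05 (4.74% over all genes), and the median was −0.17 against −0.00038 over all genes. Pmvk, phosphomevalonate kinase, stood at 38.9, 40.7, 47.5 and 49.1 TPM in W1 to W4 and at 28.9, 30.8, 36.6 and 45.2 TPM in M1 to M4. M4 lay within the WT range, and the difference was −0.32 (SE 0.0700, adjusted p = 0.215). Fdps, farnesyl diphosphate synthase, differed by −0.31 and Acat2, which condenses acetyl-CoA, by −0.28. Of the 19 settings tried, Pmvk and Fdps passed only without M4, at −0.40 and −0.42 (limma adjusted p = 0.0388 for both). The list's median was −0.15 in the earlier-numbered and −0.20 in the later-numbered cultures, and 0.07 in set 2. Without M1 and M2, 9 members were lower and 0 higher at an unadjusted p under 0.05 (5.32% and 6.01% of all genes tested), and without the number group block 7 were lower (2.92%). Fatty acid synthesis genes had 4 positive members of 17 and 7 lower at an unadjusted p under 0.05. Scd1, a stearoyl-CoA desaturase, stood at 149, 145, 156 and 157 TPM in W1 to W4 and at 133, 133, 131 and 136 TPM in M1 to M4. No G234D value fell within the WT range, and the difference was −0.19 (SE 0.0372, adjusted p = 0.191).

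Lysosomal protease and hydrolase genes lay mostly above 0, with 29 positive members of 37 and 11 higher and 0 lower at an unadjusted p under 0.05 (4.98% over all genes). Ctsh, the cysteine protease cathepsin H, stood at 73.0, 65.9, 73.1 and 66.3 TPM in W1 to W4 and at 92.9, 82.9, 93.3 and 85.1 TPM in M1 to M4. The genotypes were fully separated, and the difference of 0.34 (SE 0.0586, adjusted p = 0.160) was 0.33 and 0.35 in the earlier-numbered and later-numbered cultures. Lipa, the lysosomal acid lipase that frees cholesterol from its esters, differed by 0.27 (0.30 and 0.25), also with no overlap. Macrophages express many genes of this list. Without M1 and M2, whose macrophage marker sums were high, 5 members were higher and 1 lower (6.01% and 5.32% of all genes tested), and the part of that signal in the list was not tested.

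Cell cycle genes had 10 positive members of 58 and 15 lower at an unadjusted p under 0.05, with Cdc20, which switches on the ubiquitin ligase of anaphase, at −0.23. Without M1 and M2 the counts were 2 lower and 2 higher, 3.45% of the list each, below the 5.32% and 6.01% of all genes tested. Without M3 and M4 they were 24 lower and 1 higher (12.3% and 12.9% of all genes tested). Cdkn2a, which encodes inhibitors of the cell cycle, stood at 33.9, 34.5, 33.2 and 32.2 TPM in W1 to W4 and at 54.3, 42.0, 38.9 and 42.5 TPM in M1 to M4. WT and G234D values did not overlap, and the difference was 0.39 (SE 0.0784, adjusted p = 0.192). Contractile and focal adhesion genes had 5 positive members of 42 and 6 lower at an unadjusted p under 0.05, with Srf, the serum response factor, at −0.21 and the leiomodin gene Lmod1 at −0.26. The median of that list was 0.0002 in the earlier-numbered and −0.17 in the later-numbered cultures, and 26 members were lower and 0 higher without M1 and M2 (5.32% and 6.01% of all genes tested).

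Interferon-stimulated genes had the highest median of the lists outside the cell type markers, 0.25, with 41 positive members of 47 and 10 higher and 1 lower at an unadjusted p under 0.05. The median was 0.49 in the earlier-numbered and 0.0019 in the later-numbered cultures, and without M1 and M2 there were 2 higher and 3 lower (4.26% and 6.38% of the list), near the 6.01% and 5.32% of all genes tested. Irf9, a transcription factor of the interferon response, stood at 36.5 and 30.8 TPM in M1 and M2, against 18.3 to 23.9 TPM in WT cultures, 22.2 TPM in M3 and 20.1 TPM in M4. These are the cultures with the high macrophage, muscle and Schwann cell sums, and the part of those cells in the list was not tested.

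Genes that distinguish fibroblast subtypes lay on both sides of 0. Reticular and hypodermal genes had 12 positive members of 16 tested, 4 of them higher at an unadjusted p under 0.05, among them Col14a1 and Mgp. Papillary genes had 3 positive members of 10 tested. Crabp1, a retinoic acid binding protein, stood at 1386, 1436, 1837 and 2291 TPM in W1 to W4 and at 899, 1197, 1131 and 1155 TPM in M1 to M4. Again no values overlapped, and the difference was −0.64 (SE 0.120, adjusted p = 0.191). Among stress genes Mt2, a metallothionein, differed by 0.54 with no overlap and Mt1 by 0.27.

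**Figure D4:**
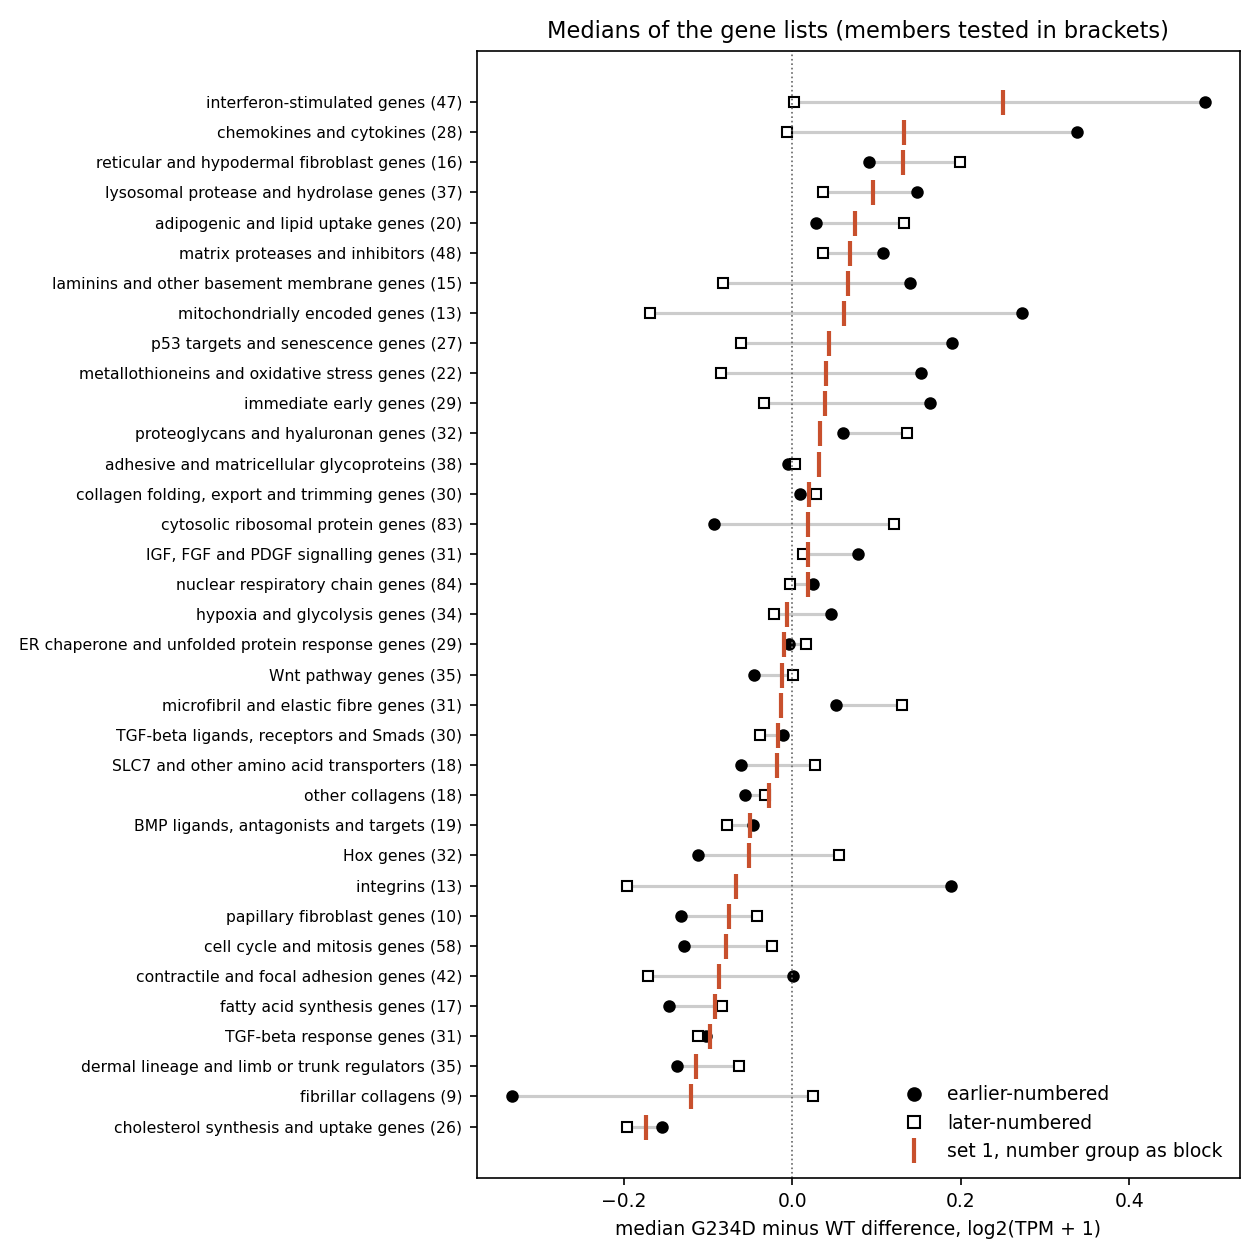
Each line is a gene list with the number of members tested in brackets; filled circles and open squares give its median difference in the earlier-numbered and later-numbered cultures, orange ticks the median in set 1 with the number group as a block, and the dotted line the median of all genes. Cholesterol and TGF-beta response genes are among several lists that lie below 0 in both number groups, as do fatty acid synthesis, cell cycle and dermal lineage genes. Interferon-stimulated, integrin, mitochondrially encoded and ribosomal protein genes do not keep 1 position.

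The block removes a difference in level between the number groups, but not a difference in the genotype effect, which was therefore tested as an interaction. limma called 334 genes for the interaction of genotype and number group. The later minus earlier difference was above 0 for 111 of them (0.932%) and under 0 for 223 (1.87%). Within the earlier-numbered cultures 288 genes were higher (2.42%) and 179 lower (1.5%) in G234D. Within the later-numbered cultures 11 were higher (0.0924%) and 21 lower (0.176%). Of 8 genes called in both number groups, 2 had the same direction, Col7a1 and Lmo7. The other 6 were each called in opposite directions. Gas1, Ccng1, Il1rl1, Isoc1 and Gask1b, chosen for their values, were among them.

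The count of 334 moved with single cultures, from 46 without M1 to 686 without M3. It was also 79 without W1, 69 without W2, 173 without W3 and 61 without W4. All 334 genes kept the sign of the difference in each of these cases.

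The smallest p of the interaction belonged to Cadm4, a cell adhesion molecule of Schwann cells. It stood at 69.2 and 65.3 TPM in M1 and M2, 18.3 and 16 TPM in M3 and M4, and 11.9 to 14.7 TPM in WT cultures. Sox10 stood at 22.4 and 22.6 TPM in M1 and M2, 6.53 and 6.15 TPM in M3 and M4, and 3.30 to 5.16 TPM in WT cultures. The Schwann cell marker sums, of which Sox10 is a part and Cadm4 is not, were 166 TPM in M1 and M2 and at most 59.2 TPM elsewhere. M1 and M2 also had the highest muscle sums. Erbb3, a neuregulin receptor of Schwann cells, and the muscle troponin gene Tnnc1 were likewise called. Their differences were 1.96 and 1.98 in the earlier-numbered, and 0.094 and −0.29 in the later-numbered cultures.

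Gas1, a growth-arrest protein that binds hedgehog ligands, was called in opposite directions. It stood at 161 and 153 TPM in W1 and W2 and at 93.9 and 101 TPM in M1 and M2, but at 205 and 188 TPM in W3 and W4 and at 264 and 255 TPM in M3 and M4. The difference was −0.68 in the earlier-numbered and 0.40 in the later-numbered cultures. Ccn2, connective tissue growth factor, a TGF-beta response gene, had 0.58 and −0.27.

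Of the 233 matrix genes tested 23 were called for the interaction, 8 with a later minus earlier difference above 0 (0.932% over all genes) and 15 under 0 (1.87%). Col18a1, a basement membrane collagen, stood at 119 and 122 TPM in M1 and M2, 70.4 and 64.4 TPM in M3 and M4, and 47.5 to 58.0 TPM in WT cultures. The paired chains of type IV collagen, Col4a1 and Col4a2, had 0.36 and 0.35 in the earlier-numbered and −0.24 and −0.21 in the later-numbered cultures. Fbn2, encoding the fibrillin of embryonic microfibrils, had −0.63 and 0.21, and Col6a1, a chain of type VI collagen, −0.54 and 0.033. Edil3, an integrin ligand, had 1.30 and 0.42. Fbn1 was not called for the interaction (adjusted p = 0.952).

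Targets of p53 and senescence genes, taken as 1 list, had 6 of 27 tested called for the interaction. All 6 had a later minus earlier difference under 0 (1.87% over all genes). Cdkn1a, the cell cycle inhibitor p21, stood at 329.99 and 345 TPM in W1 and W2 and at 511 and 485 TPM in M1 and M2, but at 305 and 302 TPM in W3 and W4 and at 268 and 252 TPM in M3 and M4. Mdm2, the ligase that degrades p53, had 0.45 and −0.12. Pdgfra, the PDGF receptor of fibroblasts, had −0.997 and 0.027, and Twist1, a transcription factor of mesenchyme, −0.34 and 0.27. The interferon-induced genes Ifit3 and B2m had 1.48 and 0.57 in the earlier-numbered, and −0.0031 and −0.018 in the later-numbered cultures.

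**Figure D5:**
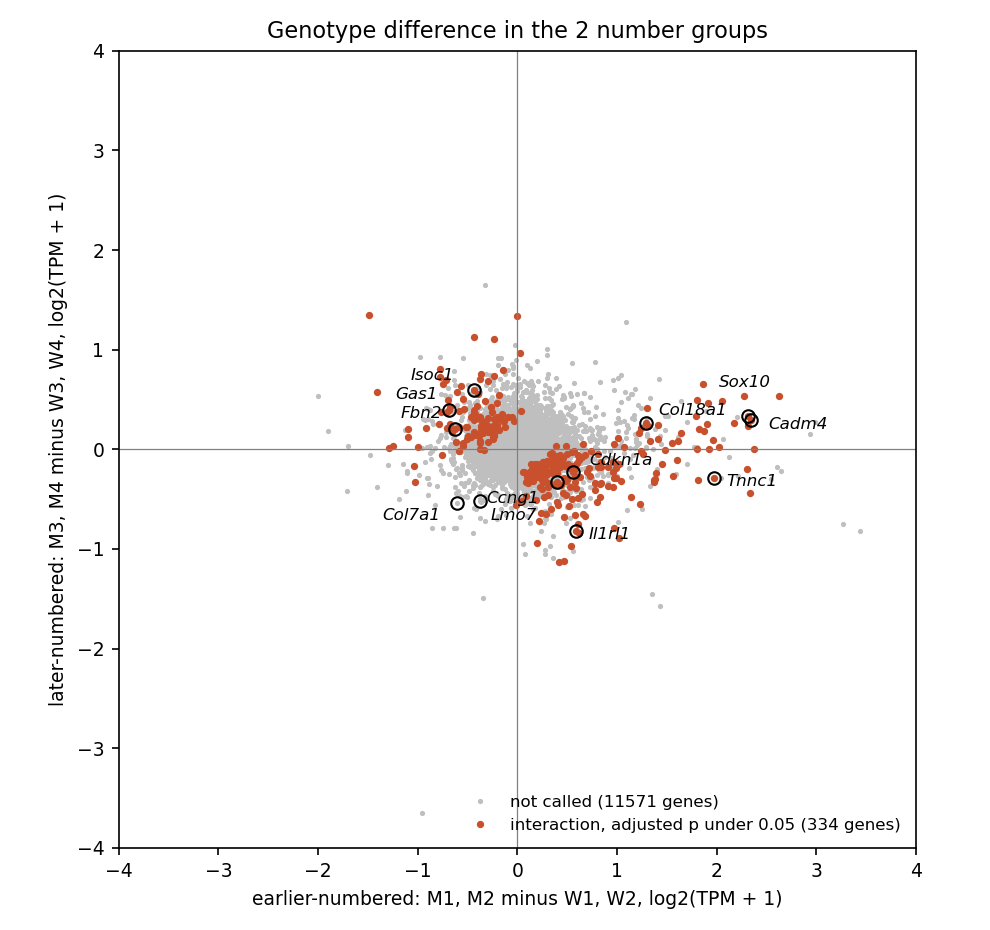
Each point is a gene, with the G234D minus WT difference of the earlier-numbered cultures along the horizontal axis and of the later-numbered cultures on the vertical axis, both on log2(TPM + 1); orange points are the 334 genes called for the interaction and circled genes are named in the text. Col7a1 and Lmo7 lie below 0 on both axes, while Ccng1, Il1rl1, Gas1 and Isoc1 lie in opposite quadrants.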

How the data were processed

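RNA was taken from 13 primary cultures with a column kit, and libraries were made with a directional (stranded) kit, per the labels' protocols. The authors deposited 1 table per culture with the TPM of 25655 genes, per the file headers; the build was mm10, per the submitters' processing notes. The aligner, counting tool, strand setting and annotation were not given in the sources used here, and TPM keeps no read depth. Each library sums to 1000000 TPM.

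Genes at 1 TPM or more in 4 of the 8 set 1 libraries (6 of 13 over both sets) were kept, and log2(TPM + 1) was fitted with limma 3.58.1 in R 4.3.3 (mean-variance trend, robust), with genotype and number group as terms. Such differences understate the change of low genes. The threshold was a Benjamini-Hochberg adjusted p of 0.05, and intervals are 95% intervals. A second model gave each number group its own difference and the interaction, and another compared the sets. All p-values measure the spread between cultures. The test was checked on simulated data.

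Samples sharing a replicate number in the labels' W and M names correlated in their deviations from the genotype means (r = 0.327, 0.198, 0.259 and 0.279). Cultures of 1 number group with unlike replicate numbers also correlated, such as W1 with M2 (0.406) and W3 with M4 (0.340). The main fit therefore kept the number group as its block, and a fit with the replicate numbers as pairs was run beside it. Within number groups the same correlations were −0.0025 and 0.0519. The blocked adjusted p of Col7a1 was 0.0410 with pairs as the block.

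Genes named are Fbn1, the 10 smallest p in each direction, up to 3 members of each list by p, any called matrix gene, and the 5 and 3 smallest p of the interaction and the set difference; clones and predicted genes are not named, and some genes under this rule are not reported here. Members and lists were chosen with earlier results of these data known. The genes called in both number groups, the list members named for the interaction, and the comparisons without M1 and M2 or without M3 and M4 were chosen after the values were seen. Gene positions, overlaps and the codon sequence come from GENCODE M21 on GRCm38, which held 25600 of the gene identifiers. Fbn1, Col14a1, Fkbp14, Pdia6, Col18a1, Bdh1, Gas1 and Ugt1a6a overlap genes on the other strand. On its own strand Entpd2 overlaps Npdc1, and Col7a1 overlaps the microRNA gene Mir711. Dapk1 and Ddah1 overlap pseudogenes or predicted genes on their own strand, and Ugt1a6a the other genes of its cluster. Reads at these places may be shared.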

Additional observations from a re-analysis of the deposited data

Results flagged for a closer look

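In 6 of 290 groups of 4 cultures, 1 culture lay far from the other 3 by Dixon's criterion, which chance meets in about 5% of groups. M4 had 98.6 TPM of Acat2, above the other G234D cultures, and M2 had 166 TPM of Ndufa3, a subunit of respiratory complex I. W1 had 7.72 TPM of Atf3, a stress-induced transcription factor, 1.66 TPM of Erbb3 and 117 TPM summed over the macrophage markers. M4 had 0.624 TPM summed over the Y-linked genes, unlike the other G234D cultures.

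The genotype difference of 26 named genes differed between the number groups (limma interaction, adjusted p from 0.000373 to 0.0491). The later minus earlier difference on the log2(TPM + 1) scale was under 0 for Tnnc1 (−2.26), Cadm4 (−2.06), Sox10 (−1.98), Erbb3 (−1.87), Ifit3 (−1.48), Il1rl1 (−1.41), Gask1b (−1.09), Col18a1 (−1.02), Edil3 (−0.88), Atf3 (−0.85), Ccn2 (−0.85), Cdkn1a (−0.78), Ccng1 (−0.73), Col4a1 (−0.59), B2m (−0.59), Mdm2 (−0.57), Col4a2 (−0.56), Pdpn (−0.54) and mt-Nd6 (−0.48). It was above 0 for Gas1 (1.08), Isoc1 (1.03), Pdgfra (1.02), Fbn2 (0.84), Twist1 (0.62), Col6a1 (0.58) and Rpl39 (0.33). For Col7a1 the difference of set 1 minus that of set 2 was −0.76 (adjusted p = 0.0396).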

How the results depend on the processing

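With pairs of cultures as a replicate block, limma called 0 genes higher and 1 lower, as without it, and it changed no call of a named gene. The 0 genes higher became 3 without M1 and M2, 525 without M3 and M4, and 0 to 5 with 1 culture left out. The 1 gene lower became 0 with no filter on low TPM, with no number group block, with no mean-variance trend and with a Y-linked covariate, 5 without M1 and M2, 341 without M3 and M4, and 0 to 3 with 1 culture left out. The 1 matrix gene called became 0 under the same 4 settings, 2 without M1 and M2, 58 without M3 and M4, and 0 to 3 with 1 culture left out. The 334 genes called for the interaction became 139 with no filter, 107 with no trend, and 46 to 686 with 1 culture left out. The 1 gene that differed between sets became 0 with no filter, no block, no trend or no robust step, and 0 to 4 with 1 culture left out. The causes were not tested. Of 2123 pairs of a named gene and a setting, 2110 kept sign and call, 9 lost the call (all Col7a1), 4 gained it and 0 changed sign. The medians of 41 lists moved beyond the spread between replicates in 80 of 861 pairs. Read depth is unknown, so the counting error of low genes cannot be given.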
